A study of Mus musculus with 6 samples.

Results

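The expression of WNT ligands, their receptors and the secreted proteins that modulate them was examined in primary hepatic stellate cells of wild-type mouse liver. The 44 genes, of 56691 in the deposited table, were taken by symbol alone: the numbered Wnt, Fzd, Sfrp, Dkk and Rspo genes together with Lrp5, Lrp6 and Axin2. They comprise 19 WNT ligands, 10 frizzled receptors, 2 LRP coreceptors, 4 R-spondins, 4 secreted frizzled-related proteins, 4 Dickkopf proteins and Axin2. The cells formed 3 groups of 2 poly(A) RNA libraries each. One group (TGF-beta-K-80003) received TGF-beta together with K-80003, a second (TGF-beta) received TGF-beta, and the third is labelled Control, with no other treatment named. All cells carried the WT genotype, and no group received K-80003 without TGF-beta. The labels give no dose, treatment time or age of the mice, and do not say whether the libraries of a group came from separate isolations. The p-values therefore measure the spread between these libraries, which may be technical.

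Stellate cells sit between hepatocytes and the sinusoidal endothelium, store retinoids at rest and deposit matrix in fibrosis, and TGF-beta is the best known signal for that switch. K-80003 binds RXRα, the nuclear receptor in the title of the study. WNT proteins are lipid-modified ligands that bind frizzled receptors. Together with the coreceptor LRP5 or LRP6 they stop the degradation of beta-catenin, which then activates TCF/LEF target genes such as Axin2, a scaffold that feeds back to shut the pathway down. R-spondins amplify the signal by keeping frizzled receptors on the cell surface. Dickkopf proteins other than DKK3 act on the coreceptors, and secreted frizzled-related proteins bind WNTs as decoys. Some ligands, WNT5A among them, act largely without beta-catenin through ROR and RYK receptors. In the liver, WNT and R-spondin from cells around the central vein maintain the zonation of hepatocytes.

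Summed counts ran from 15646093 to 19004144 per library, and mitochondrial genes took between 1.16% and 1.73%. Levels below are FPKM (reads scaled by exonic length and by the reads of the library) rescaled by TMM factors, a correction for library composition, so that they can be compared between genes and libraries. Of the 44 genes, 26 had enough reads to be tested and 18 did not. A gene could pass this filter through 1 group alone, so counts over the 26 describe only the genes that passed. Stellate cell markers were present in every library: the 13 genes listed summed to 1514 and 1532 FPKM in TGF-beta-K-80003 libraries, 4635 and 4317 FPKM in TGF-beta libraries and 3050 and 3354 FPKM in Control libraries, led by Acta2, Dcn and Col1a1. Lrat, the enzyme that esterifies retinol for storage, stood at 2.06 and 2.31 FPKM in TGF-beta-K-80003 libraries, 73.3 and 89.2 FPKM in TGF-beta libraries and 206 and 145 FPKM in Control libraries. The TGF-beta-K-80003 libraries lay below both other groups in the marker sum and in Lrat. The macrophage markers listed summed to between 15.4 and 31.4 FPKM in any library. Hepatocyte markers set 1 library apart: they summed to 2.11 FPKM in TGF-beta-K-80003 replicate 1 and 21.5 FPKM in TGF-beta-K-80003 replicate 2, against 3.86 and 4.19 FPKM in TGF-beta libraries and 4.69 and 6.6 FPKM in Control libraries. Portal fibroblast markers, led by Fbln2, Eln and Dpt, summed to 48.1 and 44.3 FPKM in TGF-beta-K-80003 libraries, 55.5 and 60.9 FPKM in TGF-beta libraries and 17.6 and 13.9 FPKM in Control libraries. In bulk RNA, fewer cells of a type and less RNA per cell cannot be told apart.

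The promoters of 3 genes described below are shown because their transcripts were all lower with K-80003 while the sequences differ in base composition and in the short motifs they hold. Each is the stretch of 250 bases before the RefSeq gene start on GRCm38.p6, written 5′ to 3′ on the strand of the gene.
Wnt4: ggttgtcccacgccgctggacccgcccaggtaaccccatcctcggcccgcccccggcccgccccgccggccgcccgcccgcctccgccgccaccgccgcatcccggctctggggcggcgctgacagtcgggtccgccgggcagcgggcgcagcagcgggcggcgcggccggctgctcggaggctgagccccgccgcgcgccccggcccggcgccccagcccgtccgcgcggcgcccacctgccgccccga
Fzd1: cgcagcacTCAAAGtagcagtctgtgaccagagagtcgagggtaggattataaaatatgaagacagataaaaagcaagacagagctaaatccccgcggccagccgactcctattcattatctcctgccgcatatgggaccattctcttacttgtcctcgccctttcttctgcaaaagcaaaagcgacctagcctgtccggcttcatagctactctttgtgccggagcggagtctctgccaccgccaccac
Sfrp2: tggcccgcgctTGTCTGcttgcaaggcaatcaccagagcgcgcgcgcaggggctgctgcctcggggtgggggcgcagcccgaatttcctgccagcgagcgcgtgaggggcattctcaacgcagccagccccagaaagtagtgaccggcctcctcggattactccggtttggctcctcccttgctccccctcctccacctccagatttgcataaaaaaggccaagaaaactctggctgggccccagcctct
The windows lie at chr4:137277385-137277634 (plus strand) for Wnt4, chr5:4758217-4758466 (minus strand) for Fzd1 and chr3:83766071-83766320 (plus strand) for Sfrp2. Their G and C content, counted with the 50 bases after the start included, was 84.3%, 54% and 66%. Capitals mark the CTTTGA core of TCF/LEF sites on the opposite strand of Fzd1, its first base at position −242 from the start, and the CAGACA element of SMAD sites on the opposite strand of Sfrp2, at position −239. Both strands were searched in windows that also held the 50 bases after the start, for 28 of the 44 genes with an entry. CTTTGA was present in 1 of 9 genes called in any comparison below (Fzd1), in 3 of 19 others and in 16% of 32851 mouse promoter windows of 300 bases. CAGACA was present in 2 of 9 called genes (Sfrp2 and Wnt7a), in 1 of 19 others and in 21% of all windows. The direct repeat of AGGTCA spaced by 1 base, a retinoid X receptor element, was in 0 of the 28 genes and in 0.0396% of all windows. The median G and C content was 69.5% over the 28 genes and 52.7% over all windows. A match is a description of the letters only, not a binding site.

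Among ligands, Wnt4 dominated the cells without K-80003. Its level was 1.76 and 2.43 FPKM in TGF-beta-K-80003 libraries, 30.5 and 24.2 FPKM in TGF-beta libraries and 20.1 and 28.5 FPKM in Control libraries. The TGF-beta and Control libraries overlapped, and both TGF-beta-K-80003 libraries lay far below them. All 19 ligands together summed to 11.6 and 11.4 FPKM in TGF-beta-K-80003 libraries, 43.1 and 38.2 FPKM in TGF-beta libraries and 33.2 and 41.6 FPKM in Control libraries. Wnt4 made up 15.3% and 21.3% of that sum in TGF-beta-K-80003 libraries, 70.8% and 63.2% in TGF-beta libraries and 60.6% and 68.6% in Control libraries. With K-80003 the ligand pool was therefore smaller and spread over several genes, with Wnt5a at 27.8% and 21.2% of it, Wnt9a at 15.7% and 18.5%, and Wnt2 at 11.9% and 13.9%. Wnt5a itself was not called in any comparison below and was at 3.21 and 2.41 FPKM in TGF-beta-K-80003 libraries, 2.52 and 3.31 FPKM in TGF-beta libraries and 2.03 and 1.64 FPKM in Control libraries.

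Of the frizzled receptors, Fzd1 and Fzd4 were the most abundant on average over the libraries. The 10 genes summed to 38.3 and 33.5 FPKM in TGF-beta-K-80003 libraries, 68.2 and 71.6 FPKM in TGF-beta libraries and 68.4 and 55.8 FPKM in Control libraries. Fzd4, which also binds norrin, led the sum with K-80003, at 11.5 and 8.42 FPKM, against 9.33 and 12.1 FPKM in TGF-beta libraries and 16.7 and 9.97 FPKM in Control libraries. Its 3 groups overlapped. Fzd1 led in the other groups, as the plot of summed levels shows. Among modulators, Rspo3 was the most abundant of the 44 genes in every library, Dkk3 came next in TGF-beta and Control libraries, and each made up at least 99.3% of the summed level of its family in every library.

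**Figure D1:**
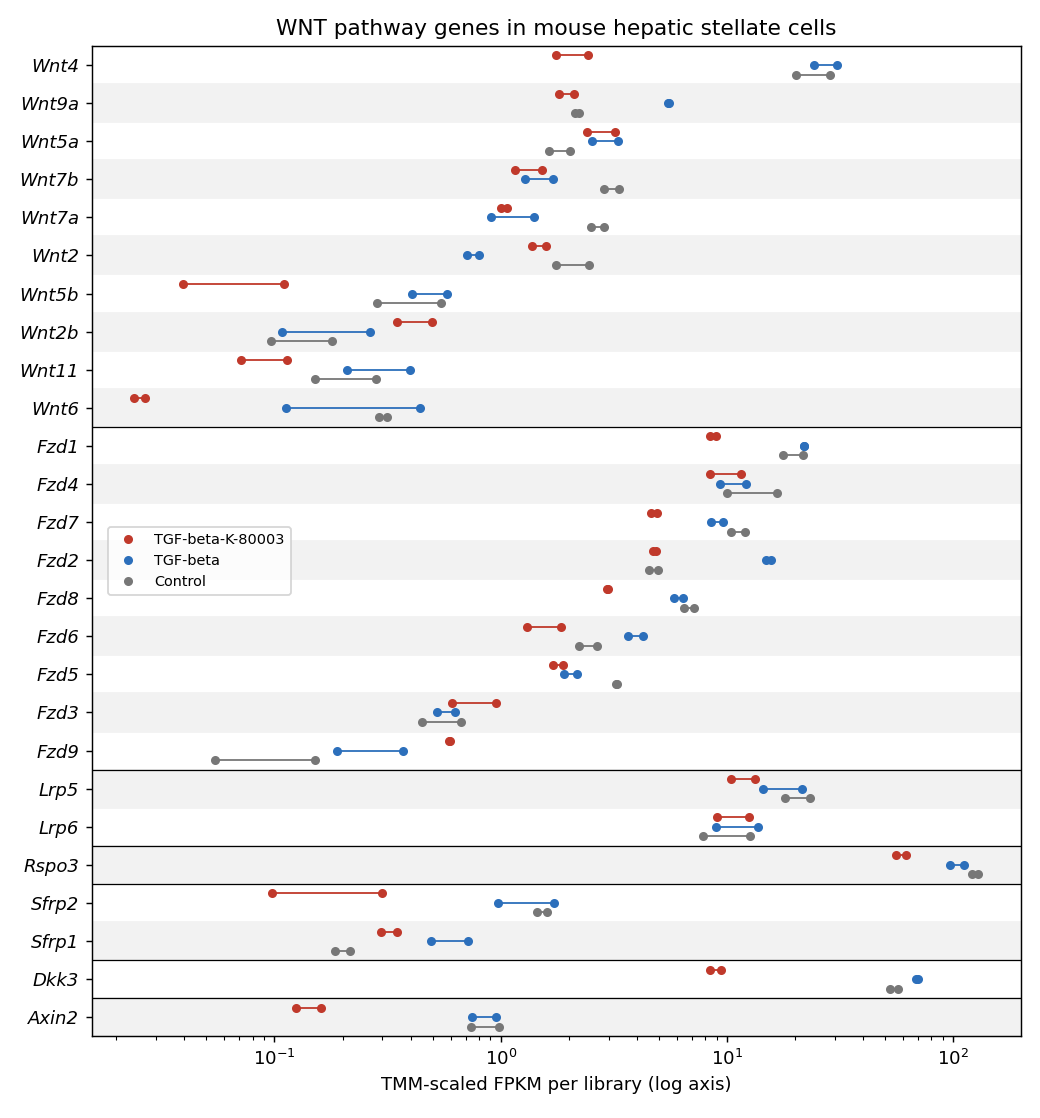
Level of each of the 26 tested genes in every library, as TMM-scaled FPKM on a log axis; each point is a library, a line joins the 2 libraries of a group, and rules separate the gene families. Wnt4, Dkk3 and Axin2 lay far lower in TGF-beta-K-80003 libraries than in both other groups, and Fzd2 and Wnt9a were high in TGF-beta libraries alone.

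**Figure D2:**
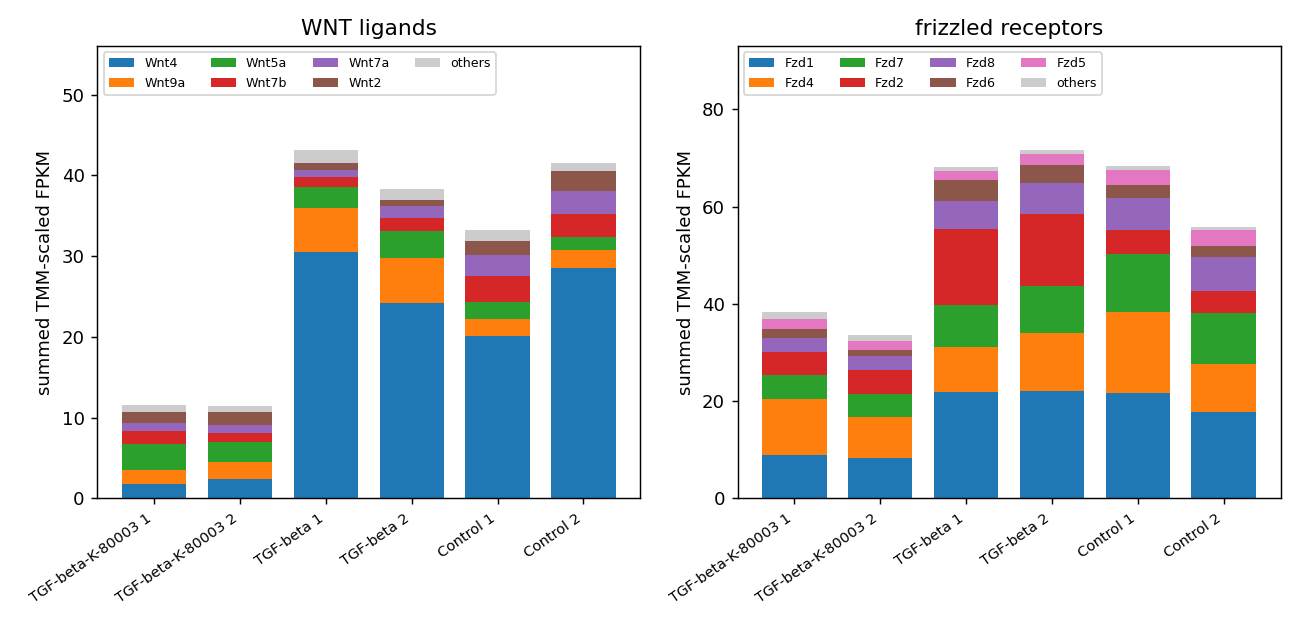
Summed TMM-scaled FPKM of the WNT ligands (left) and frizzled receptors (right) in each library, stacked by gene. The ligand sum was 11.6 and 11.4 FPKM in TGF-beta-K-80003 libraries, where the Wnt4 share shrank, against 43.1 and 38.2 FPKM in TGF-beta libraries and 33.2 and 41.6 FPKM in Control libraries.

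The comparison of TGF-beta-K-80003 with TGF-beta addresses what K-80003 changed in the presence of the cytokine. Some genes for ligands, receptors and modulators, and the feedback gene Axin2, were called lower with K-80003. None of the 26 passed the test as higher, and 15 were not called. Wnt4 fell 13-fold, Dkk3 7.75-fold and Axin2 5.98-fold. In edgeR's quasi-likelihood test with Benjamini-Hochberg adjustment over all genes, 11 of the 26 genes (42.3%) were called at an adjusted p under 0.05, all 11 lower, against 10.1% of the 15987 genes tested that were called in either direction, 7.32% lower and 2.78% higher. The median log2 fold change of the 26 genes was −0.92, beside 0.005 over all genes. An unadjusted p under 0.05 was found for 16 of the 26, and DESeq2 too called 0 higher. Stellate cell markers moved the same way, with 9 of 13 called lower and 0 called higher. Their part in the results was not tested.

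Of the 10 ligands tested, 2 fell. Wnt4, a ligand known from kidney and reproductive tract development, changed by −3.71 ± 0.28 (log2 fold change ± SE of the fit, adjusted p = 0.00105). Wnt9a, a ligand known from joint development, was at 1.81 and 2.11 FPKM in TGF-beta-K-80003 libraries and 5.50 and 5.57 FPKM in TGF-beta libraries, a change of −1.50 ± 0.17 (adjusted p = 0.00357). The libraries of the 2 groups did not overlap for either gene. Wnt5b was just outside the threshold, at 0.0395 and 0.110 FPKM with K-80003 and 0.405 and 0.581 FPKM with TGF-beta alone (log2 fold change −2.70 ± 0.65, adjusted p = 0.05 after rounding, above the threshold). It rested on 7 and 44 summed reads, a ratio of 0.149 with an exact 95% binomial interval from 0.0567 to 0.334 that covers counting error only. Its gene also overlaps Fbxl14 on the other strand, which had up to 683 reads in a library, and the labels give no strand setting for the counting. Wnt6 had 2 reads with K-80003 and 21 with TGF-beta alone (ratio 0.0893, interval from 0.0102 to 0.365) and was not called (adjusted p = 0.0883).

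The ligands Wnt2 and Wnt2b had values above those of TGF-beta alone without passing the test. Wnt2, a ligand made by liver endothelium, was at 1.37 and 1.59 FPKM in TGF-beta-K-80003 libraries and 0.802 and 0.711 FPKM in TGF-beta libraries (log2 fold change 0.96 ± 0.29, adjusted p = 0.0968). The endothelial markers listed summed to 185 and 164 FPKM with K-80003 and 101 and 120 FPKM with TGF-beta alone, with 4 of 13 called higher and 1 called lower. Cdh5, the most abundant of them, was at 84.9 and 68.6 FPKM with K-80003 and 29.1 and 40.3 FPKM with TGF-beta alone. Oit3 lay lower with K-80003, at 10.9 and 10.3 against 16.8 and 18 FPKM, as did Lyve1, at 0.018 and 0.0401 against 0.639 and 0.929 FPKM. The part of these markers in the Wnt2 values was not tested. Wnt2b had 65 reads with K-80003 and 26 with TGF-beta alone (ratio 2.35, interval from 1.47 to 3.85, adjusted p = 0.263). Wnt5a, Wnt7a and Wnt7b had log2 fold changes of −0.05, −0.15 and −0.15, with 95% intervals from −0.59 to 0.49, −0.80 to 0.50 and −0.71 to 0.41.

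Of the 9 frizzled receptors tested, 5 fell. Fzd2 was at 4.72 and 4.88 FPKM in TGF-beta-K-80003 libraries and 15.6 and 14.8 FPKM in TGF-beta libraries, a change of −1.66 ± 0.14 (adjusted p = 0.00146). Fzd1 was at 8.97 and 8.39 FPKM in TGF-beta-K-80003 libraries and 21.9 and 22.0 FPKM in TGF-beta libraries, a change of −1.34 ± 0.16 (adjusted p = 0.00419). Fzd6, a receptor of the planar polarity branch, was at 1.85 and 1.31 FPKM with K-80003 and 4.26 and 3.67 FPKM with TGF-beta alone (−1.32 ± 0.22, adjusted p = 0.0147). In none of these receptors did the libraries of the groups overlap. Fzd8 was at 2.95 and 2.98 FPKM with K-80003 and 5.82 and 6.39 FPKM with TGF-beta alone (−1.04 ± 0.14, adjusted p = 0.00687). Fzd7, which belongs with Fzd1 and Fzd2 to one subfamily, was at 4.91 and 4.62 FPKM with K-80003 and 8.51 and 9.63 FPKM with TGF-beta alone (−0.93 ± 0.15, adjusted p = 0.0134). Fzd3, Fzd4, Fzd5 and Fzd9 ran from −0.19 to 1.07 and were not called. The coreceptors Lrp5 (−0.60, 95% interval from −1.21 to 0.01) and Lrp6 (−0.08, interval from −0.84 to 0.69) were not called either.

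Each family of secreted modulators contained 1 gene that fell. Dkk3, the most divergent Dickkopf protein, was at 9.39 and 8.44 FPKM in TGF-beta-K-80003 libraries and 68.6 and 69.6 FPKM in TGF-beta libraries, a change of −2.95 ± 0.15 with the smallest adjusted p of the 26 genes (4.56e-04). Rspo3, the R-spondin of the central vein region, was at 56.0 and 61.7 FPKM with K-80003 and 111 and 97.2 FPKM with TGF-beta alone (−0.82 ± 0.15, adjusted p = 0.0195). Sfrp2 was at 0.0974 and 0.299 FPKM with K-80003 and 0.972 and 1.72 FPKM with TGF-beta alone (−2.76 ± 0.54, adjusted p = 0.0255). Rspo3 and Dkk3 were abundant, whereas the Sfrp2 call rested on 15 reads with K-80003 and 97 with TGF-beta alone. Sfrp1 was at 0.348 and 0.295 FPKM with K-80003 and 0.491 and 0.719 FPKM with TGF-beta alone and was not called (−0.91 ± 0.34, adjusted p = 0.172). Axin2 was at 0.124 and 0.160 FPKM with K-80003 and 0.750 and 0.952 FPKM with TGF-beta alone (−2.58 ± 0.32, adjusted p = 0.00483), with no overlap between the groups.

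Dkk3, Wnt4, Fzd2, Wnt9a and Axin2 were called whichever library was left out, and the other 6 calls were not. Without TGF-beta-K-80003 replicate 1, adjusted p was 0.0525 for Fzd1, 0.0882 for Fzd8, 0.116 for Fzd7, 0.209 for Rspo3 and 0.122 for Sfrp2. Without TGF-beta-K-80003 replicate 2 it was 0.0649 for Fzd1, 0.0862 for Fzd8, 0.145 for Fzd7, 0.11 for Fzd6 and 0.15 for Rspo3. With TGF-beta replicate 1 left out it was 0.0585 for Fzd6 and 0.137 for Rspo3, and with TGF-beta replicate 2 left out it was 0.0656 for Fzd7, 0.0542 for Rspo3 and 0.0926 for Sfrp2. Rspo3 was also not called by limma, with an adjusted p of 0.0551 on log2(FPKM + 1) and 0.053 on log2(FPKM + 0.1).

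**Figure D3:**
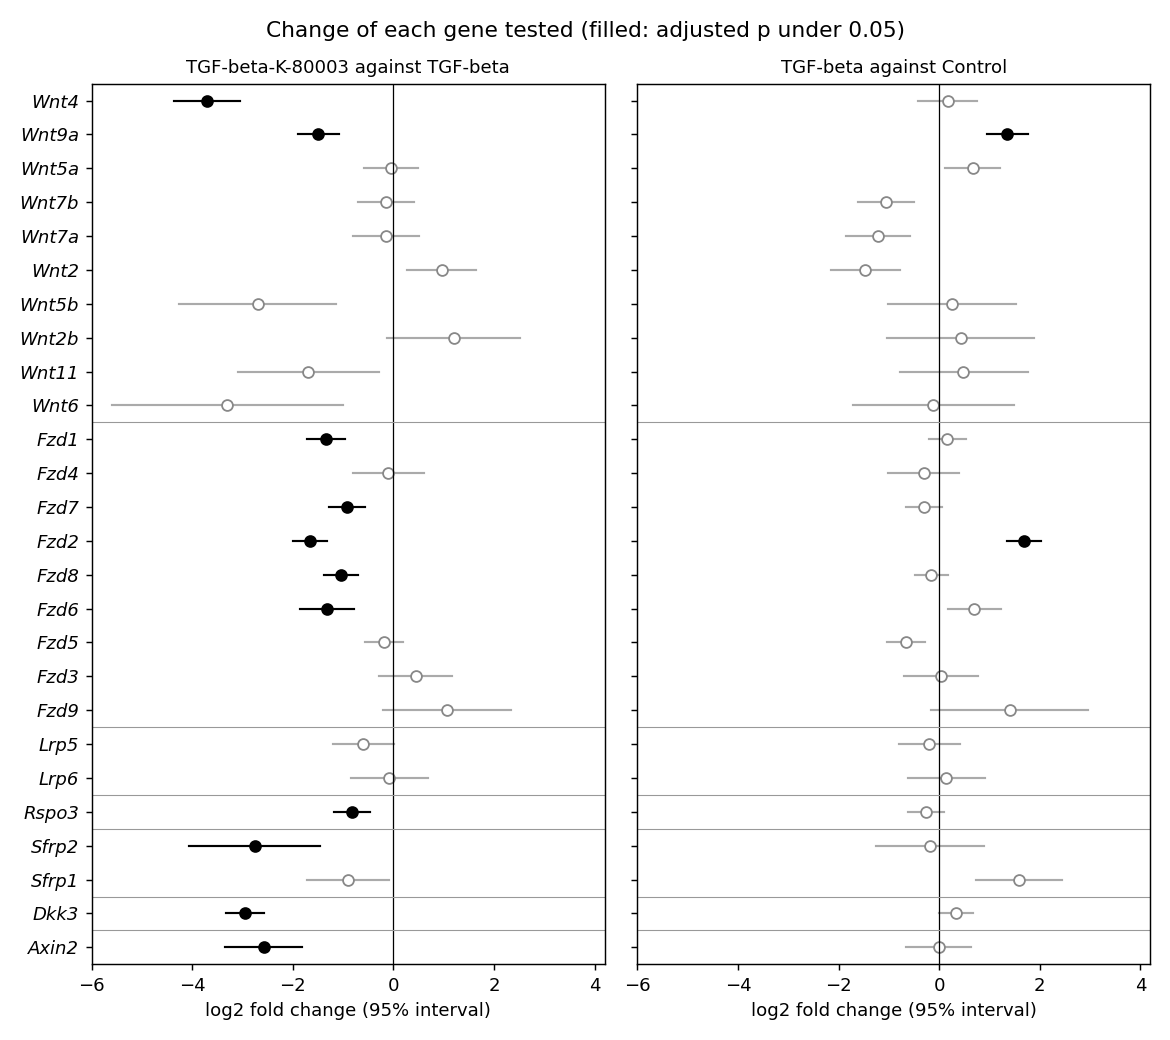
Log2 fold change of each of the 26 tested genes with its 95% interval, for TGF-beta-K-80003 against TGF-beta (left) and TGF-beta against Control (right); filled points had an adjusted p under 0.05. All 11 filled points on the left lie below 0, and Wnt9a and Fzd2 are the filled points on the right, both above 0; the panels share the TGF-beta libraries.

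The comparison of TGF-beta with Control addresses what the cytokine changed. Among the WNT genes, 1 receptor and 1 ligand rose: Fzd2 by 3.21-fold and Wnt9a by 2.55-fold. In edgeR's quasi-likelihood test, 2 of the 26 genes (7.69%) were called, both higher, against 2.94% of all genes called in either direction, 1.06% higher and 1.88% lower. The median log2 fold change of the 26 genes was 0.09, beside 0.010 over all genes. Of 9 portal fibroblast markers listed, 5 were tested. Thy1, Gli1, Clec3b and Pi16 were not, with at most 10, 5, 3 and 2 reads in a library. Of the 5 tested, 3 were called higher with TGF-beta (Eln, Fbln2 and Dpt) and 0 lower, with a median of 1.59. Cd34 (−1.60 ± 0.38) and Entpd2 (−0.21 ± 0.28) went the other way without being called. Dpt, a matrix protein, was at 1.88 and 1.43 FPKM in TGF-beta-K-80003 libraries, 5.87 and 5.4 FPKM in TGF-beta libraries and 1.74 and 1.98 FPKM in Control libraries. Fbln2, the most abundant of these markers, differed from Dpt in staying high with K-80003. It was at 43.1 and 39.6 FPKM in TGF-beta-K-80003 libraries, 33.2 and 40 FPKM in TGF-beta libraries and 11.1 and 7.23 FPKM in Control libraries. The part of these markers in the Fzd2 and Wnt9a values was not tested. An unadjusted p under 0.05 was found for 9 of the 26.

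Fzd2 was at 15.6 and 14.8 FPKM in TGF-beta libraries and 4.96 and 4.50 FPKM in Control libraries (log2 fold change 1.68 ± 0.14, adjusted p = 0.0061). Wnt9a was at 5.50 and 5.57 FPKM in TGF-beta libraries and 2.13 and 2.21 FPKM in Control libraries (1.35 ± 0.17, adjusted p = 0.0151). The groups did not overlap for either gene. The Fzd2 call held whichever library was left out. For Wnt9a, leaving out TGF-beta replicate 1 gave an adjusted p of 0.0959 and TGF-beta replicate 2 gave 0.0844, while Control replicate 1 gave 0.0645 and Control replicate 2 gave 0.0844. This comparison and the one with K-80003 share the TGF-beta libraries. The same fit of all 6 libraries also compared TGF-beta-K-80003 with Control libraries. There Fzd2 differed by 0.02 (95% interval from −0.31 to 0.36) and Wnt9a by −0.15 (interval from −0.56 to 0.27) on the log2 scale. With only these 2 groups in the fit, Fzd2 differed by −0.01.

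The next smallest p-values belonged to 3 ligands, a decoy and a receptor, and none of the 5 passed the test. Wnt2 was at 0.802 and 0.711 FPKM in TGF-beta libraries and 1.75 and 2.46 FPKM in Control libraries (−1.47 ± 0.28, adjusted p = 0.0533). Wnt7a was at 0.909 and 1.40 FPKM in TGF-beta libraries and 2.51 and 2.85 FPKM in Control libraries (−1.22 ± 0.26, adjusted p = 0.0747). Wnt7b was at 1.28 and 1.70 FPKM in TGF-beta libraries and 3.33 and 2.85 FPKM in Control libraries (−1.05 ± 0.23, adjusted p = 0.078). All 3 ligands lay lower in both TGF-beta libraries than in both Control libraries, and DESeq2 called them, with adjusted p of 0.0134 for Wnt2, 0.0189 for Wnt7a and 0.0166 for Wnt7b. WNT7A and WNT7B are ligands typical of epithelia. Cholangiocyte markers summed to 64.4 and 56 FPKM in TGF-beta libraries and 167 and 221 FPKM in Control libraries, and mesothelial markers to 107 and 87.7 FPKM in TGF-beta libraries and 304 and 441 FPKM in Control libraries. Of these lists, 3 of 8 tested cholangiocyte markers and 3 of 4 tested mesothelial markers were called lower, among them Krt19, Krt8 and Msln. The mesothelial list held 9 genes, and those not tested had few reads. Gpm6a had at most 15 in a library, Upk1b 6, Lrrn4 5, Muc16 4 and Upk3b 2. The mesothelial sum came mostly from the keratins Krt18 and Krt8. Krt18 was at 54.9 and 44 FPKM in TGF-beta and 142 and 216 FPKM in Control libraries, Krt8 at 48.4 and 40.1 FPKM and 151 and 213 FPKM. The other tested mesothelial marker, Wt1, was not called and lay higher with TGF-beta, at 0.767 and 0.547 FPKM, against 0.354 and 0.374 FPKM in Control libraries. Endothelial markers summed to 101 and 120 FPKM in TGF-beta libraries and 157 and 131 FPKM in Control libraries. The part of cells with these markers in the values of Wnt2, Wnt7a and Wnt7b was not tested.

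Sfrp1, a decoy, was at 0.491 and 0.719 FPKM in TGF-beta libraries and 0.215 and 0.185 FPKM in Control libraries (1.59 ± 0.36, adjusted p = 0.085), a ratio of 3.01 on 89 and 29 reads with an exact binomial interval from 1.96 to 4.75. Fzd5 was at 1.91 and 2.18 FPKM in TGF-beta libraries and 3.22 and 3.25 FPKM in Control libraries (−0.66 ± 0.15, adjusted p = 0.091). Fzd6 was at 4.26 and 3.67 FPKM in TGF-beta libraries and 2.65 and 2.22 FPKM in Control libraries (0.70 ± 0.22, adjusted p = 0.185). The groups did not overlap for any of the 3 genes, and none passed the test. Among the abundant genes not called, and for Axin2, the log2 fold change was 0.17 for Wnt4 (95% interval from −0.42 to 0.76), −0.27 for Rspo3 (−0.62 to 0.09), 0.34 for Dkk3 (−0.01 to 0.68), 0.16 for Fzd1 (−0.21 to 0.53) and −0.01 for Axin2 (−0.66 to 0.64).

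Set against Control, some genes for ligands, receptors and modulators were called lower in cells given TGF-beta and K-80003, and 14 of the 26 were not called. The 1 receptor called higher, Fzd9, had few reads and passed the read filter through the TGF-beta-K-80003 libraries. In edgeR's quasi-likelihood test, 12 of the 26 genes (46.2%) were called, 11 lower and 1 higher, against 17.3% of all genes called in either direction, 11.7% lower and 5.54% higher. The median log2 fold change of the 26 genes was −0.97, beside 0.023 over all genes. Stellate cell markers moved the same way here too, with 10 of 13 called lower, 1 called higher and a median of −1.34, and their part in the results was not tested. The comparison shares its TGF-beta-K-80003 libraries with the first one. Log2 fold changes against Control were −3.54 ± 0.28 for Wnt4, −1.18 ± 0.16 for Fzd1, −1.24 ± 0.15 for Fzd7, −1.20 ± 0.14 for Fzd8, −1.09 ± 0.15 for Rspo3, −2.95 ± 0.54 for Sfrp2, −2.62 ± 0.15 for Dkk3 and −2.59 ± 0.32 for Axin2. The adjusted p of these 8 genes ran from 3.49e-04 for Dkk3 to 0.0138 for Sfrp2.

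A pair of ligands and a pair of receptors were also called against Control. Wnt7a was at 1.07 and 0.998 FPKM in TGF-beta-K-80003 libraries and 2.51 and 2.85 FPKM in Control libraries (−1.37 ± 0.26, adjusted p = 0.0162). Wnt7b was at 1.52 and 1.16 FPKM in TGF-beta-K-80003 libraries and 3.33 and 2.85 FPKM in Control libraries (−1.20 ± 0.23, adjusted p = 0.0162). Here too the epithelial and mesothelial markers were low with K-80003, at 46.1 and 49.7 FPKM for cholangiocyte and 76.9 and 97.2 FPKM for mesothelial markers, against 167 and 221 FPKM and 304 and 441 FPKM in Control libraries. All 8 cholangiocyte and all 4 mesothelial markers tested, of 9 listed for each, were called lower. The 4 mesothelial ones include the keratins Krt8 and Krt18. The part of these markers in the Wnt7a and Wnt7b values was not tested. Fzd5 was at 1.89 and 1.71 FPKM with K-80003 and 3.22 and 3.25 FPKM in Control libraries (−0.84 ± 0.15, adjusted p = 0.0136). Fzd9 was at 0.594 and 0.588 FPKM with K-80003 and 0.0546 and 0.151 FPKM in Control libraries (2.47 ± 0.60, adjusted p = 0.0377). Its ratio was 5.63 on 49 and 8 reads, with an exact binomial interval from 2.65 to 13.8. The TGF-beta libraries, at 0.370 and 0.188 FPKM, lay between the other groups. Fzd9 reached the filter's minimum of 10 reads in both libraries of a group only with K-80003. It had 26 and 23 reads there, 15 and 7 with TGF-beta alone and 2 and 6 in Control libraries. The call as higher is thus not independent of the filter.

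Axin2, Dkk3, Fzd7, Fzd8 and Wnt4 were called against Control whichever library was left out. Without TGF-beta-K-80003 replicate 1, adjusted p was 0.0876 for Fzd5, 0.161 for Fzd9, 0.0718 for Rspo3, 0.0677 for Sfrp2, 0.0909 for Wnt7a and 0.0537 for Wnt7b. Without TGF-beta-K-80003 replicate 2 it was 0.0609 for Fzd1, 0.135 for Fzd5, 0.158 for Fzd9, 0.0554 for Rspo3, 0.111 for Wnt7a and 0.12 for Wnt7b. Without Control replicate 1 it was 0.155 for Fzd9 and 0.0598 for Wnt7b, and without Control replicate 2 it was 0.0767 for Fzd9 and 0.0575 for Wnt7a. Fzd9 also had an adjusted p of 0.0541 without TGF-beta replicate 1.

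The proteins that act with these ligands and receptors were counted by list. Of the 15987 genes tested, 7.32% were called lower and 2.78% higher in TGF-beta-K-80003 against TGF-beta. These shares were 11.7% and 5.54% in TGF-beta-K-80003 against Control, and 1.88% and 1.06% in TGF-beta against Control. Of 12 tested coreceptors and alternative WNT receptors, 4 fell and 0 rose in TGF-beta-K-80003 against TGF-beta, with a list median of −0.87 and 0 called higher by DESeq2 too. Gpc4, a membrane glypican that holds WNTs, was at 33.1 and 31.7 FPKM with K-80003 and 93.3 and 101 FPKM with TGF-beta alone (−1.58 ± 0.14, adjusted p = 0.00161). Ryk, a receptor-like pseudokinase for WNT5A, was at 39.5 and 40.7 FPKM with K-80003 and 110 and 97.2 FPKM with TGF-beta alone (−1.37 ± 0.15, adjusted p = 0.00318). Both were abundant and separated the groups. Ror1, a receptor tyrosine kinase for the same ligand, was at 0.209 and 0.183 FPKM with K-80003 and 0.873 and 1.2 FPKM with TGF-beta alone (−2.39 ± 0.28, adjusted p = 0.00383). Lgr6, an R-spondin receptor, had 9 and 8 reads with K-80003 and 38 and 45 reads with TGF-beta alone (−2.37 ± 0.39, adjusted p = 0.0142). Gpc4 and Ror1 kept their call whichever library was left out. Ryk had an adjusted p of 0.053 without TGF-beta-K-80003 replicate 1 and 0.0533 without replicate 2 of that group, and Lgr6 had 0.105 and 0.107 without the same libraries and 0.073 without TGF-beta replicate 2. Lgr4, the R-spondin receptor with the highest level, was at 2.73 and 2.52 FPKM with K-80003, 2.42 and 3.05 FPKM with TGF-beta alone and 2.51 and 2.44 FPKM in Control libraries. In TGF-beta against Control, 0 of the 12 genes passed edgeR's test, 4 had an unadjusted p under 0.05, and DESeq2 called 0. In TGF-beta-K-80003 against Control, 5 of the 12 fell, and 2 without TGF-beta-K-80003 replicate 2.

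Of 5 tested genes for WNT secretion, extracellular enzymes and the matrix protein Tinagl1, 2 fell in TGF-beta-K-80003 against TGF-beta, beside 7.32% of all genes. Wls, the carrier that takes WNTs to the cell surface, was at 44.9 and 43.9 FPKM with K-80003 and 73.2 and 68.5 FPKM with TGF-beta alone (−0.67 ± 0.14, adjusted p = 0.0302), and Control libraries had 47.9 and 43.2 FPKM. Tinagl1, a matrix protein, changed by −1.18 ± 0.17 (adjusted p = 0.00907). Neither call held whichever library was left out. Wls had an adjusted p of 0.24 without TGF-beta-K-80003 replicate 1, 0.266 without TGF-beta-K-80003 replicate 2, 0.178 without TGF-beta replicate 1 and 0.0902 without TGF-beta replicate 2. Tinagl1 had 0.105, 0.0707 and 0.0552 without the first 3 of these. In TGF-beta against Control, edgeR called 0 of the 5, with 2 at an unadjusted p under 0.05, and DESeq2 called 2 higher. In TGF-beta-K-80003 against Control, 1 of the 5 fell, Tinagl1 (−1.40 ± 0.17, adjusted p = 0.00334). With so few genes, 1 of 5 is near the 17.3% of all genes called there, so it is not a result about the list.

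Of 10 other modulators, secreted or, for Apcdd1, in the membrane, 3 had enough reads to be tested. All 3 fell in TGF-beta-K-80003 against Control, where 11.7% of all genes were called lower, with adjusted p of 0.00183 for Frzb, 0.00246 for Igfbp4 and 0.0123 for Apcdd1. Frzb, a decoy also known as sFRP3, had the highest level of the WNT decoys measured, at 57.8 and 61.3 FPKM with K-80003 and 201 and 171 FPKM with TGF-beta alone (−1.64 ± 0.16, adjusted p = 0.00192), beside 160 and 176 FPKM in Control libraries. Apcdd1, a membrane inhibitor of the pathway, was at 0.0244 and 0.0773 FPKM with K-80003 and 0.364 and 0.388 FPKM with TGF-beta alone (−2.90 ± 0.47, adjusted p = 0.0126). Both kept their call whichever library was left out. Igfbp4, which binds insulin-like growth factors and also LRP6, fell in TGF-beta against Control, at 4.46 and 3.50 FPKM in TGF-beta libraries, against 11.1 and 16.0 FPKM in Control libraries (−1.77 ± 0.25, adjusted p = 0.0203). With TGF-beta replicate 1 left out its adjusted p was 0.0793, with TGF-beta replicate 2 left out 0.131 and with Control replicate 2 left out 0.083.

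Of 17 tested target and feedback genes of beta-catenin, Axin2 included, 5 fell and 0 rose in TGF-beta-K-80003 against TGF-beta. Of all genes, 7.32% were called lower and 2.78% higher there. The list median was −0.05. DESeq2 called 0 of them higher, and 8 had an unadjusted p under 0.05. The 5 were all feedback regulators or receptors, and they were called whichever library was left out. Nkd1, an inhibitor of Dishevelled, was at 5.82 and 5.97 FPKM with K-80003 and 20.4 and 20.9 FPKM with TGF-beta alone (−1.81 ± 0.14, adjusted p = 0.00107). Dact3, another antagonist of Dishevelled, was at 2.77 and 2.88 FPKM with K-80003 and 15.5 and 13.4 FPKM with TGF-beta alone (−2.35 ± 0.19, adjusted p = 0.00138). Ephb2, an ephrin receptor, was at 1.21 and 0.967 FPKM with K-80003 and 4.96 and 7.2 FPKM with TGF-beta alone (−2.48 ± 0.25, adjusted p = 0.00222). Axin2 and Apcdd1, the latter also counted among the modulators above, complete the 5. Other genes of the list did not pass the test, feedback regulators among them. Mean levels with K-80003 and with TGF-beta alone were 0.709 and 0.734 FPKM for Nkd2, 1.66 and 1.53 FPKM for Znrf3. They were 14.8 and 13.5 FPKM for Dact1. Rnf43 (0.0244 and 0.112 FPKM) and Dact2 (0.133 and 0.316 FPKM) had lower means with K-80003. Myc was at 0.48 ± 0.14 (adjusted p = 0.0879) and Ccnd1 at −0.25 ± 0.22 (adjusted p = 0.601), as the plot of the target genes shows.

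In TGF-beta against Control, 3 of the 17 target and feedback genes rose and 2 fell, where 1.06% of all genes were called higher and 1.88% lower. In TGF-beta-K-80003 against Control, described last, those shares were 5.54% and 11.7%. Ccn4, a matricellular protein first found as WNT1-inducible, was at 35.4 and 45.8 FPKM with TGF-beta and 6.19 and 4.86 FPKM in Control libraries (2.88 ± 0.22, adjusted p = 0.006), and its call held whichever library was left out. Dact3 (1.15 ± 0.19, adjusted p = 0.0309) and Dact1 (0.93 ± 0.16, adjusted p = 0.0377) also rose, and Glul, the zonated glutamine synthetase (−1.18 ± 0.14, adjusted p = 0.0119), and Ccnd1, a cyclin (−1.24 ± 0.22, adjusted p = 0.0443), fell. With any 1 of the 6 libraries left out, 1 gene of the list was called higher and between 0 and 1 lower. Ccn4 was at 65.4 and 55.2 FPKM in TGF-beta-K-80003 libraries, above Control (3.45 ± 0.22, adjusted p = 4.16e-04) and not called against TGF-beta (0.57 ± 0.20, adjusted p = 0.155). In TGF-beta-K-80003 against Control, 4 of the 17 rose and 8 fell, with 7 called lower without either Control library, 5 without TGF-beta-K-80003 replicate 1 and 4 without TGF-beta-K-80003 replicate 2. The number called higher was 3 or 4 with a Control or TGF-beta library left out, 2 without TGF-beta-K-80003 replicate 1 and 1 without TGF-beta-K-80003 replicate 2.

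**Figure D4:**
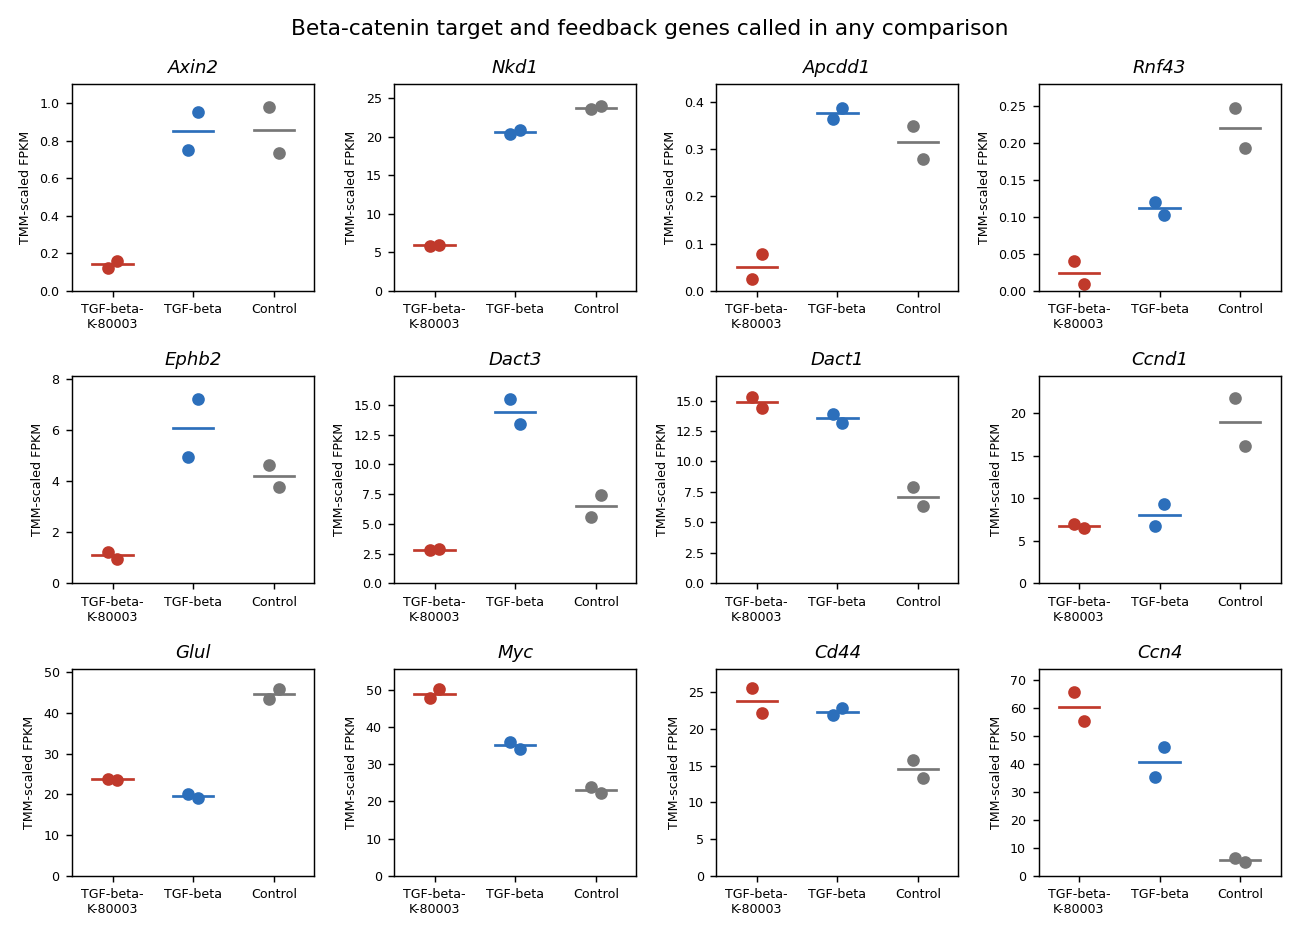
TMM-scaled FPKM of the 12 target and feedback genes called in at least 1 comparison; each point is a library and each bar the mean of a group. Axin2, Nkd1, Apcdd1, Ephb2 and Dact3 lay lower in TGF-beta-K-80003 than in TGF-beta libraries, whereas Ccn4 was low in Control libraries alone.

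The genes of the intracellular machinery gave few calls. Of 29 tested cytoplasmic and nuclear genes of the beta-catenin pathway, edgeR called 0 in TGF-beta-K-80003 against TGF-beta and 0 in TGF-beta against Control, with 5 and 1 at an unadjusted p under 0.05, and DESeq2 called 0 in both. Ctnnb1, which encodes beta-catenin, was at 111 and 109 FPKM with K-80003, 106 and 102 FPKM with TGF-beta alone and 112 and 88.3 FPKM in Control libraries. Against Control with K-80003, Tle2 (−1.16 ± 0.17), Tcf7l2 (−0.69 ± 0.16) and Tle4 (−0.77 ± 0.20) fell and Tle1 (0.58 ± 0.14) rose, all transcription factors or corepressors of the pathway, with adjusted p between 0.00576 and 0.0436. These 4 calls of 29 are no larger a share than the 17.3% of all genes called in this comparison, so they are not a result about the pathway. Without TGF-beta-K-80003 replicate 1 none of the 4 was called, with adjusted p of 0.0585, 0.0952, 0.0845 and 0.255, nor without replicate 2 of that group, with 0.0569, 0.254, 0.269 and 0.174. With Control replicate 1 left out it was 0.109 for Tcf7l2, 0.134 for Tle4 and 0.0885 for Tle1, and with Control replicate 2 left out 0.0662, 0.0835 and 0.162. Tle1 had 0.0731 and 0.0728 with TGF-beta replicate 1 or 2 left out. Of 22 tested genes of the planar polarity and calcium branch, edgeR called 0 in the first comparison and 0 in the second, with 2 and 5 at an unadjusted p under 0.05, and DESeq2 called 1 lower in each. Against Control with K-80003, 2 of the 22 rose and 3 fell, with Daam2, a formin, at −2.28 ± 0.33 (adjusted p = 0.00574), but with any 1 library left out 0 rose and between 1 and 4 fell. These counts are near the 5.54% of all genes called higher and 11.7% called lower and show nothing particular to the branch.

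The 18 WNT genes that were not tested had few reads or none. Wnt3a and Fzd10 had 0 reads in all 6 libraries. Dkk4, Rspo1, Wnt1, Wnt8b and Wnt9b reached 1 read in a library at most, and Rspo2, Rspo4, Sfrp4, Sfrp5, Wnt16, Wnt3 and Wnt8a 2 reads. Dkk2 reached 3, Wnt10a 4, Dkk1 6 and Wnt10b 8 reads. For these genes a difference between the groups was not detectable at this depth. Of the tested genes not yet described, Wnt11 had 14 reads with K-80003, 43 with TGF-beta alone and 30 in Control libraries, and Fzd3 was at 0.95 and 0.609 FPKM with K-80003, 0.521 and 0.626 FPKM with TGF-beta alone and 0.670 and 0.448 FPKM in Control libraries.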

How the data were processed

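The single deposited table listed integer read counts and FPKM values per gene and library, with gene positions on GRCm39. Those counts were raw, as deposited. The FPKM values, as deposited, were each the count over exonic length and summed count, to within 0.005. The submitters' processing notes name HTSeq 0.6.1, Cufflinks 2.2.1, DESeq2, HISAT2 2.0.1, cutadapt 1.9.1 and SAMtools 0.1.19, with no order or role. The filter was filterByExpr of edgeR 4.0.16 in R 4.3.3 (minimum count 10, minimum total 15); the 15987 genes kept held all but 0.13% of the reads. A single fit covered all 6 libraries, with TMM scaling, a two-sided quasi-likelihood test and Benjamini-Hochberg adjustment over the genes kept. It had no replicate block, a common dispersion of 0.038, and 3 residual and 3.45 prior degrees of freedom. A gene is "called" at an adjusted p under 0.05. The code was tested on simulated data. Libraries of 1 group were not duplicates: their chi-square per degree of freedom was 13 to 31.7.

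The genes, the 6 pathway lists and the 7 marker lists were chosen with earlier results of these data known. A tested WNT gene was described in full if called or among the 8 smallest p-values of a comparison. Each pathway list gave up to 4 called genes by p, and each marker list its 3 most abundant genes; Lrat, Lgr4, Ctnnb1, Myc, Ccnd1 and the epithelial markers named fall outside that rule for some sentences and were chosen after their values were seen. Alternatives were median-of-ratios and upper-quartile scaling, no filter, 1 CPM in 2 libraries, DESeq2 1.42.0, limma 3.58.1 on log2(FPKM + 1) and log2(FPKM + 0.1), limma-voom with quantile normalization, only the groups compared, a replicate block and leaving out each library. A block with crossed numbers, and every alternative for the pathway lists, were added after seeing the data. Promoters are RefSeq's on GRCm38.p6, and no position was carried between builds.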

Additional observations from a re-analysis of the deposited data

How the results depend on the processing

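The numbers of WNT genes called were 11 in TGF-beta-K-80003 against TGF-beta, 12 in TGF-beta-K-80003 against Control and 2 in TGF-beta against Control. They stayed within 1.5 times of these under both other scalings, the 1 CPM filter, limma on log2(FPKM + 0.1), limma-voom and the fit of only the groups compared. For TGF-beta against Control the number was 6 with no filter, 5 by DESeq2 and 5 by limma on log2(FPKM + 1). Over all genes, with 1616, 2758 and 470 called in the same order, no filter gave 2492 in the first comparison and 1143 in the last. For the last, DESeq2 gave 846 and the 2 groups alone 199. Leaving out 1 library gave 6 to 11, 6 to 14 and 1 to 2 WNT genes, and 451 to 1661, 996 to 2397 and 89 to 218 genes in all.

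The labels do not say that replicate numbers pair libraries, and deviations of same-numbered libraries correlated at −0.476, 0.504 and −0.636 in the same order of comparisons. With the replicate block, 8, 9 and 0 WNT genes and 792, 1564 and 40 of all genes were called. It ended the calls of Fzd7 (adjusted p = 0.0596), Rspo3 (0.0867) and Sfrp2 (0.0515) in the first comparison, Fzd5 (0.0532), Fzd9 (0.0961) and Wnt7b (0.0527) in the second, and Fzd2 (0.0506) and Wnt9a (0.0761) in the last. The TGF-beta numbers crossed, a block added after seeing the data, gave 18, 20 and 13 WNT genes and 5903, 7352 and 3708 of all genes.

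The sign turned only for genes that were not called. In TGF-beta against Control, Axin2 was 0.17 under limma-voom and −0.21 to 0.21 with a library left out, Sfrp2 −0.63 to 0.14 and Wnt4 −0.06 to 0.44. In TGF-beta-K-80003 against TGF-beta, limma-voom gave 0.08 for Wnt7a and 0.04 for Wnt7b, and leaving out a library −0.43 to 0.14 and −0.36 to 0.03. In TGF-beta-K-80003 against Control, Fzd2 was −0.06 under upper-quartile scaling, 0 with no filter, −0.01 with the 2 groups alone and −0.07 to 0.09 with a library left out, and Wnt9a 0.16 under limma-voom. The cause of these shifts was not tested. Depth limits genes such as Wnt5b, Wnt6, Wnt11 and Fzd9, which had at most 29 reads in a library.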

Other observations

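WNT genes lie next to each other in 4 pairs (GRCm39, positions as in the deposited table). Wnt9a, at chr11:59197754-59224378, lies 16175 bases from Wnt3a, at chr11:59138859-59181578 on the opposite strand. Wnt9a reached 324 reads in a library, whereas Wnt3a had 0 in every library. Wnt6, at chr1:74811051-74824481, lies 6193 bases from Wnt10a, at chr1:74830675-74843338 on the same strand, and both were scarce, with at most 17 and 4 reads. The pairs Wnt9b and Wnt3, 24328 bases apart on chromosome 11, and Wnt10b and Wnt1, 11706 bases apart on chromosome 15, were not tested, with at most 8 reads for any of the 4 genes.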
